A study of Mus musculus with 12 samples.

Results

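DNA methylation was followed at 6 interferon regulatory factor genes, Irf4, Irf8, Irf1, Irf2, Irf5 and Irf7, while mouse B cells divided in response to lipopolysaccharide (LPS). A CpG, a cytosine followed by guanine, was a member when the deposited annotation gave it the symbol of 1 of these 6 genes. This held for 423 of the 760348 CpGs that were measured in every library. They comprised 23 CpGs of Irf4, 205 of Irf8, 86 of Irf1, 64 of Irf2, 32 of Irf5 and 13 of Irf7. A symbol follows the nearest transcript, so some CpGs of Irf8 and Irf2 lie far out in intergenic DNA. At 8 CpGs of Irf8 and 4 of Irf2 the nearest transcription start belonged to another gene.

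Naive B220+ CD43- B cells were taken from the spleens of C57/BL6J donor mice, labelled with a division dye (CFSE or CTV) and transferred into uMT hosts. These hosts carry a disrupted immunoglobulin heavy chain and have no mature B cells of their own. After a night of rest the hosts were given LPS, a bacterial Toll-like receptor ligand, and on day 3 splenic B cells were sorted by the dilution of the dye. The sorted fractions were Div0 (undivided), Div1, Div3 and Div5 (1, 3 and 5 divisions), Div8neg (8 or more divisions, without the plasma cell surface marker CD138) and Div8pos (8 or more divisions, CD138-positive). The sample labels give all 12 samples as female, 8 weeks old, from LPS-treated spleen, with B6.SJL-Ptprca Pepcb/BoyJ in the strain field. Each fraction had 1 library from host 196 and 1 from host 197, so n = 2 host animals throughout. The sample titles number the host and not the donor of the B cells. A library is written with its host, as Div0/196. All fractions, Div0 included, came from LPS-treated hosts, so no group was free of LPS. The libraries were reduced representation bisulfite libraries, which read CpG-rich restriction fragments, so only part of each gene was seen.

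Interferon regulatory factors are transcription factors that share an N-terminal DNA-binding domain and bind GAAA-containing elements. IRF4 and IRF8 are the lymphoid and myeloid members that pair with PU.1, SpiB or BATF; IRF4 is required for plasma cell formation and antibody class switching, and IRF8 acts in naive and germinal centre B cells. IRF1 activates interferon-stimulated genes and IRF2 can oppose it, while IRF5 and IRF7 act downstream of Toll-like receptors and switch on inflammatory cytokine and type I interferon genes.

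At the start sites of Irf4, Irf8 and Irf1 the measured CpGs had little methylation in any fraction, and the sequences are shown because the losses described below lie outside them. Each is the RefSeq promoter entry of build GRCm38.p6, 250 bases before and 50 bases after the start, on the plus strand, and capitals mark the CpGs that were measured. The measured CpGs were placed by their spacing, since the files use mm9. Only positions that put every measured CpG inside the entry on a CG were compared, and the runner-up is the next of these. This put 10 Irf4 CpGs on a CG at chr13:30748983-30749282, against 2 for the runner-up position. It put 11 Irf8 CpGs on a CG at chr8:120736108-120736407, against 3. It put 25 Irf1 CpGs on a CG at chr11:53769764-53770063, against 2.
Irf4: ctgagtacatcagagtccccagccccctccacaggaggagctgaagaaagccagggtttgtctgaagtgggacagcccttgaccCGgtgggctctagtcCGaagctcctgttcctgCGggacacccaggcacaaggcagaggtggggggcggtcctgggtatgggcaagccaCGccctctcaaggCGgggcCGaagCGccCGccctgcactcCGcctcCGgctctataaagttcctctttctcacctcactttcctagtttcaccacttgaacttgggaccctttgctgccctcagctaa
Irf8: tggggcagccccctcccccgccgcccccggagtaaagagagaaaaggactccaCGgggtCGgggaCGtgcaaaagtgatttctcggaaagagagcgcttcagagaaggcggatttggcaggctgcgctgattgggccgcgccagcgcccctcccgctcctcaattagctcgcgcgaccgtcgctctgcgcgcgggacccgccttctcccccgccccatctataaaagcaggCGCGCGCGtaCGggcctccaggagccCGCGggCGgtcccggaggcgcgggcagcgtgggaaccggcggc
Irf1: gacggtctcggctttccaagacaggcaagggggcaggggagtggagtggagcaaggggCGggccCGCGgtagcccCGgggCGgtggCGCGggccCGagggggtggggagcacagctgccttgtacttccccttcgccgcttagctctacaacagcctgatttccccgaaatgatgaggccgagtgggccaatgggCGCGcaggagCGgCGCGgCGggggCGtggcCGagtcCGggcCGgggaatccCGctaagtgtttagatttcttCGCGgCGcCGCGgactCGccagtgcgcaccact
These 3 entries held 11, 38 and 32 CpGs in all, with 61.0%, 70.0% and 69.3% G and C, against a median of 7 CpGs over 32851 mouse entries. The Irf4 CpGs in capitals averaged 1.41% methylation in Div8pos and 2.16% in Div0, and the highest value of any of them in any library was 12.1%. The Irf8 ones averaged 2.03% in Div8pos and 1.19% in Div0 (highest 12.5%), and the Irf1 ones 1.38% in Div8pos and 2.0% in Div0 (highest 14.8%). The letters TATAAA began 26 bases before the start of Irf4, 31 before that of Irf8 and 29 before that of Irf7, and 13.6% of all entries hold them on either strand. The letters TTCNNNGAA, the core of a STAT site, began 90 bases before the Irf1 start, 171 and 153 before that of Irf8 and 224 before that of Irf2 (8.3% of all entries). A match of letters describes the sequence and is not evidence of binding.

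The libraries held 17969105 to 56775157 reads over the 760348 CpGs, with a median coverage of 20 to 66 reads and 19 to 80 reads at the CpGs of Irf4. The mean methylation over all CpGs was 50.2% and 49.6% in Div8pos (hosts 196 and 197), 53.2% and 53.1% in Div8neg, and 56.2% and 55.9% in Div0. Levels of single genes are read against this general loss. Start-site CpGs of 4 of 6 B cell marker genes had 2.1 to 7.99% methylation in Div8pos and 0 to 7.96% in Div0. Those of 2 of 4 myeloid markers had 32.3 to 76.7% in Div8pos and 38.0 to 97.6% in Div0.

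Among the 423 CpGs, calls of lower methylation at a limit of 20 points were made only in cells with 8 or more divisions. Most were in CD138-positive cells. A CpG was called lower or higher where the quasi-binomial model gave a Benjamini-Hochberg adjusted p under 0.05 over all 760348 CpGs and the fraction means differed by at least 20 percentage points. In Div8pos against Div0, 35 of the 423 CpGs were lower (8.27%) and 0 higher, against 6.61% lower and 0.0271% higher among all CpGs. In Div8neg against Div0, 13 were lower and 0 higher, against 0.781% and 0.0397% of all CpGs. In Div8pos against Div8neg, 6 were lower (1.42%) and 0 higher, against 0.636% and 0.00697% of all CpGs. In Div1, Div3 and Div5, 0 were called lower or higher by this model and 0 by limma. The model put 18, 31 and 40 of the 423 at an unadjusted p under 0.05 in these 3 fractions, and among all CpGs 0%, 0.027% and 0.123% were lower and 0%, 0.00118% and 0.00552% higher.

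The counts depended on single libraries, because each fraction had 2. The 13 losses in Div8neg became 7 without Div0/196, 5 without Div0/197 and 1 without Div8neg/197. The 35 losses in Div8pos became 20 without Div0/197 and 23 without Div8pos/197. The 6 losses in Div8pos against Div8neg became 1 without Div8neg/197, and 1 without Div8pos/197. Host 197 gave the deeper library in every fraction.

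Most member CpGs were too low in Div0 to be called lower, though they could still lose methylation. Of the 423, 234 had under 20% methylation in Div0 and could not fall by 20 points, which all CpGs of that range share. Of the 189 with at least 20%, 35 were lower in Div8pos (18.5%), against 10.8% of the 466993 CpGs of the whole table in that range. All 6 Irf4 CpGs above the limit were lower, all of them 1.37 to 2.41 kb upstream of the start. For Irf8 24 of 134 were lower (17.9%), for Irf2 4 of 34 and for Irf7 1 of 6. For Irf1 0 of 8 were lower and for Irf5 0 of 1, although 9 CpGs of Irf1 and 7 of Irf5 had an unadjusted p under 0.05 over all their CpGs, and limma also called 0 in either gene.

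The gene level, the mean methylation of the CpGs of a gene within 50 kb of the nearest start, fell past the limits for Irf4 only among the 6. Irf4 stood at 8.82% and 9.27% in Div8pos (hosts 196 and 197), against 22.1% and 20.1% in Div0. In Div8neg it stood at 19.3% and 19.5%, and from Div1 to Div5 between 19.9% and 22.7%. Both Div8pos libraries therefore lay below all 10 others. Div8pos minus Div0 was -12.05 points (SE 0.970, limma adjusted p = 9.14e-06 over 16505 genes) and 10.4 points below Div8neg (adjusted p = 0.000236). Div8neg minus Div0 was -1.70 points (adjusted p = 0.182). This small difference averages CpGs whose means lay on both sides of Div0. The 7 CpGs 1 to 5 kb from the start averaged 47.9% in Div8neg against 64.6% in Div0. The 6 CpGs 5 to 50 kb away averaged 13.5% in Div8neg against 1.86% in Div0. By host (196 and 197) these 6 had 8.39% and 18.6% in Div8neg and 0% and 3.71% in Div0. These distance groups were not tested, and of the 23 Irf4 CpGs 1 was called lower and 0 higher in Div8neg. Weighted by reads, as summed methylated over summed reads of the gene, Div8neg minus Div0 was -8.85 points (adjusted p = 0.0576) and Div8pos minus Div8neg -8.78 points (adjusted p = 0.0804), so the sizes of both steps depend on the weighting. Of all genes, 15.7% were lower in Div8pos against Div0 by this rule, 1.49% in Div8neg against Div0 and 2.09% in Div8pos against Div8neg, while 0%, 0.0121% and 0.00606% were higher. The second step, Div8pos minus Div8neg, was 8.66 points more negative than the first, Div8neg minus Div0 (SE 1.68), which did not pass over all genes (adjusted p = 0.101, 0.0485% of genes called more negative and 0.0242% more positive).

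**Figure D1:**
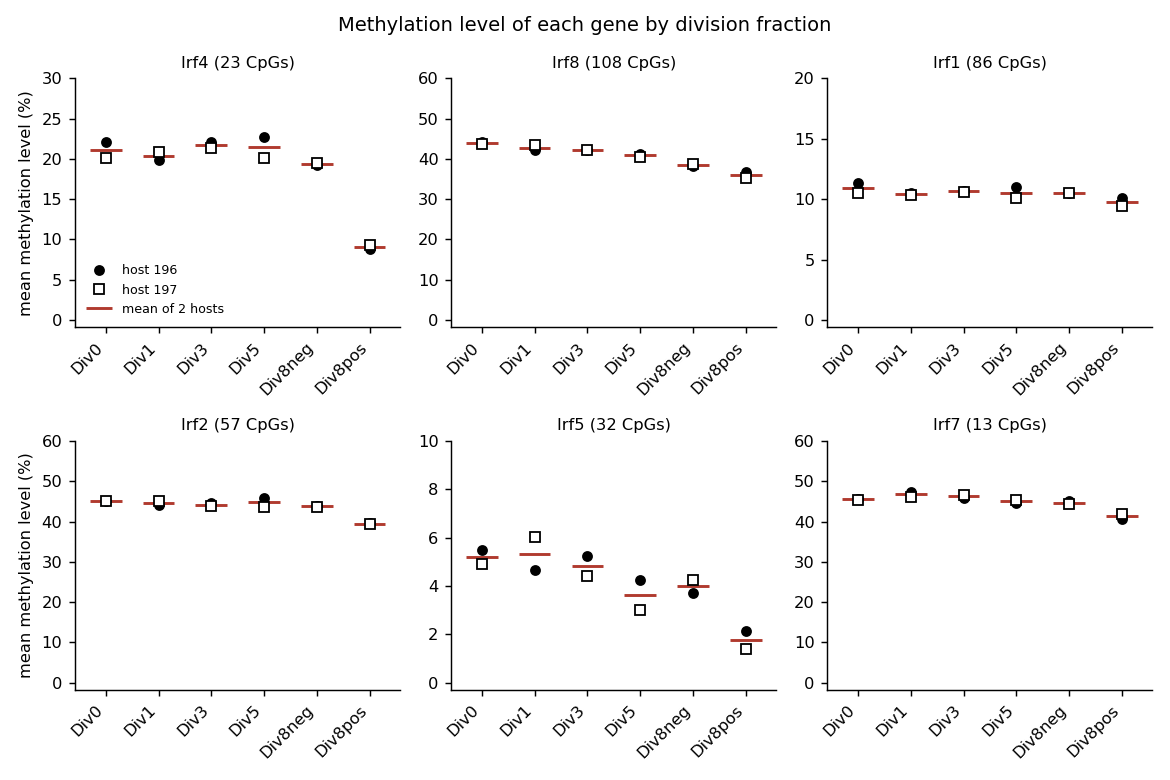
Gene level (mean percent methylation of the CpGs within 50 kb of the nearest start, vertical axis) by sorted fraction in 6 panels, with 1 point per host and a dash at the mean. Irf4 stays between 19.3% and 22.7% through Div8neg and lies at 8.82% and 9.27% in Div8pos, Irf8 declines over the fractions, and Irf1 and Irf5 are low throughout.

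Levels of the other 5 genes moved by less than the limit of 10 points. Irf8, over 108 CpGs, had 36.7% and 35.3% in Div8pos, against 44.3% and 43.6% in Div0, a difference of -7.98 points (SE 0.704, limma adjusted p = 1.39e-05). It was 5.51 points below Div0 in Div8neg (38.3% and 38.6%, adjusted p = 0.00104). Div8pos was then 2.48 points below Div8neg (adjusted p = 0.0168). Irf2, over 57 CpGs, had 39.7% and 39.3% in Div8pos, 44.0% and 43.7% in Div8neg, and 45.2% and 45.1% in Div0. Its difference between Div8pos and Div0 was -5.62 points (SE 0.804, adjusted p = 0.00019). Irf7, with 40.7% and 41.9% in Div8pos against 45.7% and 45.3% in Div0, differed by -4.25 points (adjusted p = 0.000487). Irf5 had 2.16% and 1.39% in Div8pos against 5.49% and 4.90% in Div0, a difference of -3.42 points (adjusted p = 0.00221). Irf1 had 10.1% and 9.43% in Div8pos against 11.3% and 10.6% in Div0, a difference of -1.17 points (adjusted p = 0.0979). The median over all 16505 genes was -5.21 points, and ranked by loss Irf4 was 1344, Irf8 4434, Irf2 7655, Irf7 9823, Irf5 11196 and Irf1 14702.

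Among the 23 Irf4 CpGs covered by at least 10 reads in every library, all losses in Div8pos against Div0 lay upstream of the start, and the farthest upstream is a group of 4 CpGs at chr13:30838716-30838863 of mm9. It lies 2.33 kb upstream of the start, inside the 2500 bp that the files class as promoter, with a median of 39 reads per CpG and library. Mean methylation in hosts 196 and 197 was 95.4% and 88.1% in Div0, 91.3% and 87.4% in Div1, 92.1% and 90.2% in Div3, and 86.4% and 90.5% in Div5. It was 74.3% and 67.4% in Div8neg and 38.4% and 42.9% in Div8pos. The fractions up to Div5 overlap, Div8neg lies below them all, and Div8pos lies below Div8neg. Such groups, runs of at least 3 CpGs at most 500 bp apart, are called blocks here, and they were tested with limma over 78550 blocks at a limit of 10 points. The block was 51.1 points lower in Div8pos than in Div0 (SE 3.19, adjusted p = 3.1e-05) and 30.3 points lower in Div8pos than in Div8neg (adjusted p = 0.00164). It was 20.9 points lower in Div8neg than in Div0 (adjusted p = 0.0082), a call that ended without Div0/196 (-17.2 points, adjusted p = 0.0582). The second step was 9.39 points more negative than the first, a difference that did not pass (adjusted p = 0.527). In bulk DNA a level of 40% cannot be told apart from full loss in some cells and partial loss in each.

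Each of the 4 CpGs was lower in Div8pos. The CpG 2286 bp upstream had 41.9% and 45.2% in Div8pos, against 87.5% and 81.6% in Div8neg and 97.3% and 94.3% in Div0. It was 52.2 points lower in Div8pos than in Div0 (adjusted p = 1.98e-18) and 41 points lower in Div8pos than in Div8neg (adjusted p = 1.27e-05). Most of its loss therefore separated the fractions with and without CD138. Its neighbour 2362 bp upstream had 23.3% and 27.8% in Div8pos, 42.4% and 46% in Div8neg, and 89.2% and 69.8% in Div0. It was 54 points lower in Div8pos (adjusted p = 3.48e-13) and was the one Irf4 CpG lower in Div8neg (-35.3 points, adjusted p = 0.00558). That Div8neg call ended without Div0/196 (-25.6 points, adjusted p = 0.0896), without Div8neg/196 (-33.5, 0.0625) or without Div8neg/197 (-37.1, 0.161).

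The CpG 2263 bp upstream had 40.9% and 35.3% in Div8pos, 88.9% and 63% in Div8neg, and 95.2% and 96.2% in Div0, the widest split between the hosts of Div8neg. It was 57.6 points lower in Div8pos than in Div0 (adjusted p = 1.24e-12). Against Div8neg it was 37.8 points lower (adjusted p = 0.0255, and 0.0592 with a term for the host), and that call ended without any 1 of 3 libraries. These were Div8neg/196 (-24.9 points, adjusted p = 0.376), Div8neg/197 (-50.8, 0.0578) and Div8pos/197 (-35, 0.465). The outermost CpG, 2410 bp upstream, had 47.6% and 63.2% in Div8pos, 78.6% and 79.2% in Div8neg, and 100% and 92% in Div0. It was 40.6 points lower in Div8pos than in Div0 (adjusted p = 0.000109).

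A pair of CpGs nearer the start lost almost all of its methylation. The CpG 1379 bp upstream had 2.94% and 1.75% in Div8pos, 26.7% and 29.4% in Div8neg, and 58.8% and 38.6% in Div0. It was 46.4 points lower in Div8pos than in Div0 (adjusted p = 7.35e-08) and 25.7 points lower than in Div8neg (adjusted p = 0.00246). The call against Div8neg ended without Div8neg/197 (-24.3 points, adjusted p = 0.135) or without Div8pos/197 (-25.1, 0.22). The CpG 1367 bp upstream had 0% in both Div8pos libraries, 8.57% and 20.5% in Div8neg, and 32% and 29.9% in Div0. It was 30.9 points lower in Div8pos than in Div0 (adjusted p = 8.88e-09). In Div5 it had 16.7% and 19.4%, below both Div0 values, without passing the test.

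**Figure D2:**
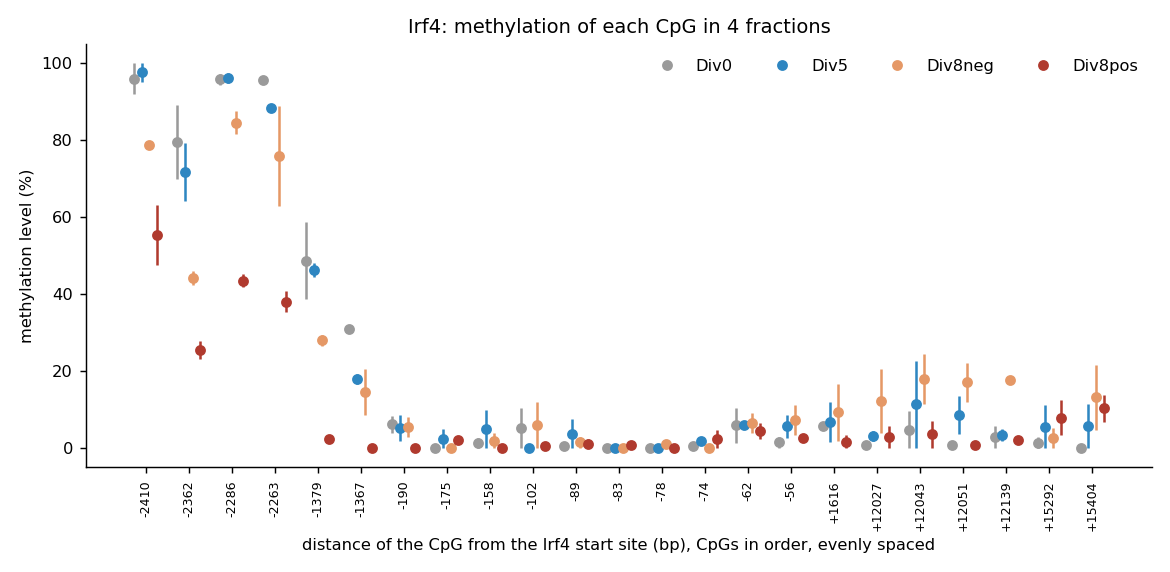
Percent methylation (vertical axis) of the 23 Irf4 CpGs in their order along the gene, labelled by distance from the start, for Div0, Div5, Div8neg and Div8pos, where dots are means and bars span both hosts. The 6 CpGs 2.41 to 1.37 kb upstream separate by fraction with Div8pos lowest, the 10 near the start stay low, and the 4 CpGs about 12.1 kb downstream are highest in Div8neg.

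At the start itself the 10 Irf4 CpGs of the printed promoter had 1.75% and 1.06% in Div8pos, 4.34% and 1.63% in Div8neg, and 2.94% and 1.38% in Div0. The difference between Div8pos and Div0 was -0.752 points (SE 1.49), within the spread of the hosts. The 2 CpGs of the 3′ UTR, 15292 and 15404 bp downstream, averaged 13.1% and 5.11% in Div8pos, 2.38% and 13.4% in Div8neg, and 0% and 1.47% in Div0, and neither passed in any comparison.

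The opposite direction was seen 12.1 kb downstream, in a block of 4 CpGs of the Irf4 introns and an exon at chr13:30853155-30853267 of mm9, with a median of 48 reads. In hosts 196 and 197 it had 0% and 4.84% in Div0, 2.63% and 3.45% in Div1, 6.52% and 4.96% in Div3, and 11.5% and 1.91% in Div5. It had 11.4% and 21.2% in Div8neg and 0.625% and 3.96% in Div8pos. Both Div8neg values lay above those of Div8pos and Div0, while host 196 of Div5 matched the lower Div8neg value. The block was 13.9 points higher in Div8neg than in Div0 (SE 3.77, adjusted p = 0.0484, and 0.0644 with a term for the host), against 0.243% of all blocks called higher. It was 14 points lower in Div8pos than in Div8neg (adjusted p = 0.034). The first call ended without Div0/196 (11.4 points, adjusted p = 0.223), Div0/197 (16.3, 0.0932) or Div8neg/197 (8.97, 0.181). The call of Div8pos against Div8neg ended without Div8neg/197 (-9.1 points, adjusted p = 0.138), Div8pos/196 (-12.3, 0.123) or Div8pos/197 (-15.6, 0.0698). Start-site CpGs of 3 of 6 T cell markers were measured, with means of 20.4 to 91.7% in Div8neg and 8.4 to 97.2% in Div0. Among them Lat averaged 20.4% in Div8neg and 8.4% in Div0, Cd3e 91.7% in Div8neg and 97.2% in Div0, and Cd4 75.6% in Div8neg and 77.8% in Div0, so they did not move in one direction. Whether other cells in the Div8neg sort had a part in the higher levels was not tested.

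Over all 6 genes 43 blocks held 362 of the CpGs. In Div8pos against Div0, 17 were lower and 0 higher, against 28.1% lower and 0.0535% higher among all blocks, with 12 of 24 in Irf8, 4 of 9 in Irf2 and 1 of 3 in Irf4. In Div8neg against Div0, 8 were lower and 2 higher, against 5.26% lower and 0.243% higher among all blocks. The 8 became 1 without Div0/196 and 5 without Div0/197. With a term for the host neither higher block passed (limma adjusted p = 0.0644 and 0.0511). In Div8pos against Div8neg, 5 were lower and 1 higher, against 8.36% lower and 0.0929% higher. The median difference of the 43 blocks was -8.75 points in Div8pos, against -6.68 for all blocks, and -3.22 in Div8neg, against -2.9 for all blocks. In Div1, Div3 and Div5, limma called 0 of the 43, with 3, 4 and 7 at an unadjusted p under 0.05. Among all blocks 0%, 0.014% and 0.234% were lower there, and 0%, 0% and 0.0102% higher. The second step differed from the first in 0 of the 43 by limma, with 12 at an unadjusted p under 0.05, against 0.248% of all blocks more negative and 0.243% more positive.

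**Figure D3:**
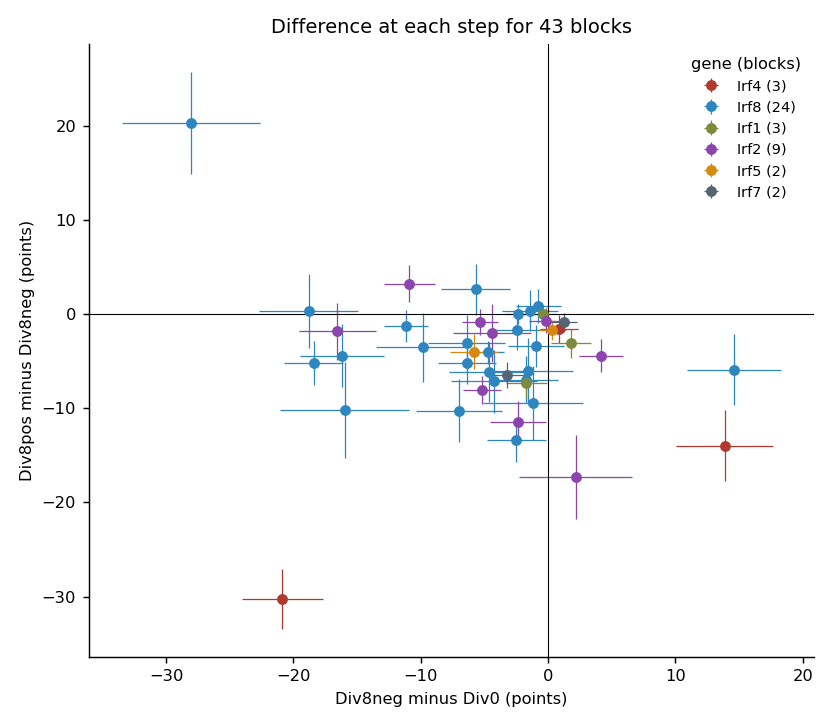
Difference Div8pos minus Div8neg (vertical axis, percentage points) against Div8neg minus Div0 (horizontal axis, percentage points) for the 43 blocks, 1 point per block with standard errors. The Irf4 block 2.33 kb upstream lies lowest at -30.3 on the vertical axis and -20.9 on the horizontal, and the Irf8 block 5.3 kb downstream stands alone at the upper left, at 20.3 and -28.

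Irf8 lost methylation at many places, in the flanks and in the gene, but at 1 of the 30 CpGs around its start. The start block of 30 CpGs had 2.3% and 2.2% in Div8pos and 5.4% and 3.64% in Div0, a difference of -2.28 points (SE 1.04, limma adjusted p = 0.096). Its outermost CpG, at chr8:123260950 of mm9 in the first intron 673 bp downstream of the start, was the exception. It had 82.4% and 48.3% in Div0, 37.5% and 49.4% in Div1, 27.4% and 50% in Div3, 13% and 29% in Div5, 13.6% and 11.3% in Div8neg, and 15.9% and 12.3% in Div8pos. The means were 65.3%, 43.4%, 38.7%, 21.0%, 12.5% and 14.1% in that order, so most of the difference lay before the eighth division, though the hosts were far apart in Div0. Div8pos was 51.2 points below Div0 (adjusted p = 5.09e-07) and Div8neg 52.8 points below Div0 (adjusted p = 3.5e-05), while Div5 minus Div0 was -44.3 points (adjusted p = 0.0876). The Div8neg call ended without Div8neg/197 (-51.7 points, adjusted p = 0.121).

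The Irf8 block 95.8 kb downstream, 7 intergenic CpGs at chr8:123355956-123356300 of mm9, declined with the divisions. In hosts 196 and 197 it had 35.4% and 28% in Div0, 33.7% and 34.3% in Div1, 27.3% and 28.5% in Div3, and 18.9% and 20.8% in Div5. It had 15.2% and 11.3% in Div8neg and 8.95% and 7.25% in Div8pos, and from Div5 on each fraction lay wholly below the one before. It was 23.6 points lower in Div8pos than in Div0 (SE 2.34, adjusted p = 0.00022) and 18.4 points lower in Div8neg than in Div0 (adjusted p = 0.0044). Its CpG at 123355960 was also lower in Div8neg, with 33.3% and 21.1% against 70% and 53.4% in Div0 (-34.5 points, adjusted p = 0.0344, and 0.0664 with a term for the host). Div8pos minus Div8neg was -5.17 points (adjusted p = 0.153).

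In and near the Irf8 gene, 3 more blocks were as low in Div8neg as in Div8pos. The block 30.8 kb upstream had 65.5% and 54.2% in Div8pos, 57.4% and 61.7% in Div8neg, and 75% and 81.6% in Div0. It was 18.5 points lower in Div8pos (SE 3.92, adjusted p = 0.005) and 18.8 points lower in Div8neg (adjusted p = 0.022), the Div8neg call ending without Div0/196 (-22.1 points, adjusted p = 0.0646), Div0/197 (-15.5, 0.102) or Div8neg/196 (-16.7, 0.0761). The 12 CpGs of exons and introns 7.86 kb downstream had 38.2% and 35.7% in Div8pos, 40.5% and 35.9% in Div8neg, and 50.2% and 48.5% in Div0. That block was 12.4 points lower in Div8pos (adjusted p = 0.00077) and 11.2 points lower in Div8neg (adjusted p = 0.0081). Without Div0/196 the Div8neg call ended (-10.3 points, adjusted p = 0.063), and without Div8neg/197 the difference was -8.84 points (adjusted p = 0.0195). A block 12 kb downstream had 60.6% and 54.4% in Div8pos, 60% and 63.8% in Div8neg, and 75% and 81.1% in Div0. It was 20.6 points lower in Div8pos (adjusted p = 0.0015) and 16.2 points lower in Div8neg (adjusted p = 0.021), the Div8neg call ending without any 1 of 3 libraries, Div0/196, Div0/197 and Div8neg/196 (adjusted p 0.0587, 0.0984 and 0.0731).

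Other Irf8 blocks were lower in Div8pos alone by the call, which does not show that the fractions differ. The exception is the block of 7 CpGs 11.3 kb upstream, where Div8pos against Div8neg passed too. It had 11.2% and 9.16% in Div8pos, 19.6% and 27.5% in Div8neg, and 26.8% and 25.3% in Div0. It was 15.9 points lower in Div8pos than in Div0 (SE 2.3, adjusted p = 0.00099). Div8pos was 13.4 points lower than Div8neg (adjusted p = 0.0078), and without Div8neg/197 the difference, -9.43 points (adjusted p = 0.0124), was under the limit of 10 points. Its CpG 11655 bp upstream had 20% and 20.8% in Div8pos, 31.2% and 63% in Div8neg, and 75.9% and 71.4% in Div0. That CpG was 53.2 points lower in Div8pos than in Div0 (adjusted p = 2.58e-11). The 2 Div8neg hosts were far apart there, and the difference of -26.8 points between Div8pos and Div8neg (adjusted p = 0.00575) was -10.9 without Div8neg/197 (adjusted p = 0.833) and -27.1 without Div8pos/197 (adjusted p = 0.389). Its neighbour 11612 bp upstream had 50% and 31.7% in Div8pos, 53.3% and 69.6% in Div8neg, and 92.9% and 89.6% in Div0. It was 50.4 points lower in Div8pos than in Div0 (adjusted p = 3.27e-14), and Div8neg minus Div0 was -29.8 points (adjusted p = 0.03), a call that ended without any 1 of the 4 libraries (adjusted p 0.0961 to 0.489). Div8pos minus Div8neg was -20.6 points (adjusted p = 0.0329), and the call ended without Div8neg/197 (-12.5, 0.753) or Div8pos/197 (-11.4, 0.738).

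The block 8.52 kb upstream had 68.3% and 72.5% in Div8pos, 88.6% and 72.5% in Div8neg, and 100% and 93% in Div0, a difference of -26.1 points in Div8pos (SE 5.09, adjusted p = 0.0034). The block 51.6 kb downstream had 76.2% and 71.9% in Div8pos, 90.1% and 78.5% in Div8neg, and 90.4% and 92.1% in Div0, a difference of -17.2 points in Div8pos (adjusted p = 0.0035). Both were close to fully methylated in undivided cells. The block 4.31 kb upstream was 10.6 points lower in Div8pos than in Div0 (adjusted p = 0.0485, and 0.0582 with a term for the host), a call that ended without any 1 of the 4 libraries (adjusted p 0.0614 to 0.228). Blocks 129, 140 and 157 kb downstream were 11.5, 10.7 and 11.4 points lower in Div8pos (adjusted p = 0.0035, 0.0212 and 0.0211). Without Div0/196 the first difference was -8.15 points. The second call ended without Div0/197 (-9.05 points, adjusted p = 0.109) or Div8pos/196 (-6.77, 0.13), and that at 157 kb without Div0/196 (-8.56, 0.129) or Div8pos/196 (-6.38, 0.123). The last Irf8 block, 156 kb from the start of another gene, was 13.3 points lower (adjusted p = 0.0154), a call that ended without Div0/197, Div8pos/196 or Div8pos/197 (adjusted p 0.0781, 0.054 and 0.0563).

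Within Irf8, 2 further blocks passed in Div8neg and not in Div8pos against Div0. The block of 5 CpGs 5.3 kb downstream, at chr8:123265528-123265644 of mm9, is classed as 3′ UTR and had a median of 19 reads, the fewest of the 43. In hosts 196 and 197 it had 48.6% and 53.3% in Div0, 47.9% and 42% in Div1, 51.7% and 46% in Div3, and 50.5% and 42.7% in Div5. It had 14.2% and 31.6% in Div8neg and 45.8% and 40.7% in Div8pos, so both Div8neg values lay below all 10 others. It was 28 points lower in Div8neg than in Div0 (SE 5.43, adjusted p = 0.0177) and 20.3 points higher in Div8pos than in Div8neg (adjusted p = 0.0329). Div8pos minus Div0 was -7.7 points (adjusted p = 0.27). The Div8neg call ended without Div0/196 (-30.4 points, adjusted p = 0.0767) or Div0/197 (-25.7, 0.0818). The call of Div8pos against Div8neg ended without Div8neg/196 (11.6 points, adjusted p = 0.124), Div8pos/196 (17.8, 0.122) or Div8pos/197 (22.9, 0.0667). The second step was 48.4 points more positive than the first (adjusted p = 0.0752, and 65.9 points with adjusted p = 0.0233 without Div8neg/197).

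The other was an intronic block 14.5 kb downstream, at chr8:123274674-123274854 of mm9, low in Div0 and higher in Div8neg. In hosts 196 and 197 it had 4% and 2.34% in Div0, 13.6% and 4.19% in Div3, 10.1% and 12.7% in Div5, 22.6% and 12.9% in Div8neg, and 9.69% and 14.1% in Div8pos. It was 14.6 points higher in Div8neg than in Div0 (SE 3.73, adjusted p = 0.0403, and 0.0511 with a term for the host). The call ended without Div0/196 (adjusted p = 0.142), Div0/197 (adjusted p = 0.14) or Div8neg/196 (9.74 points, adjusted p = 0.143). Div8pos minus Div0 was 8.73 points (adjusted p = 0.0774). The Div8neg levels of the T cell markers given above belong beside this block too.

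**Figure D4:**
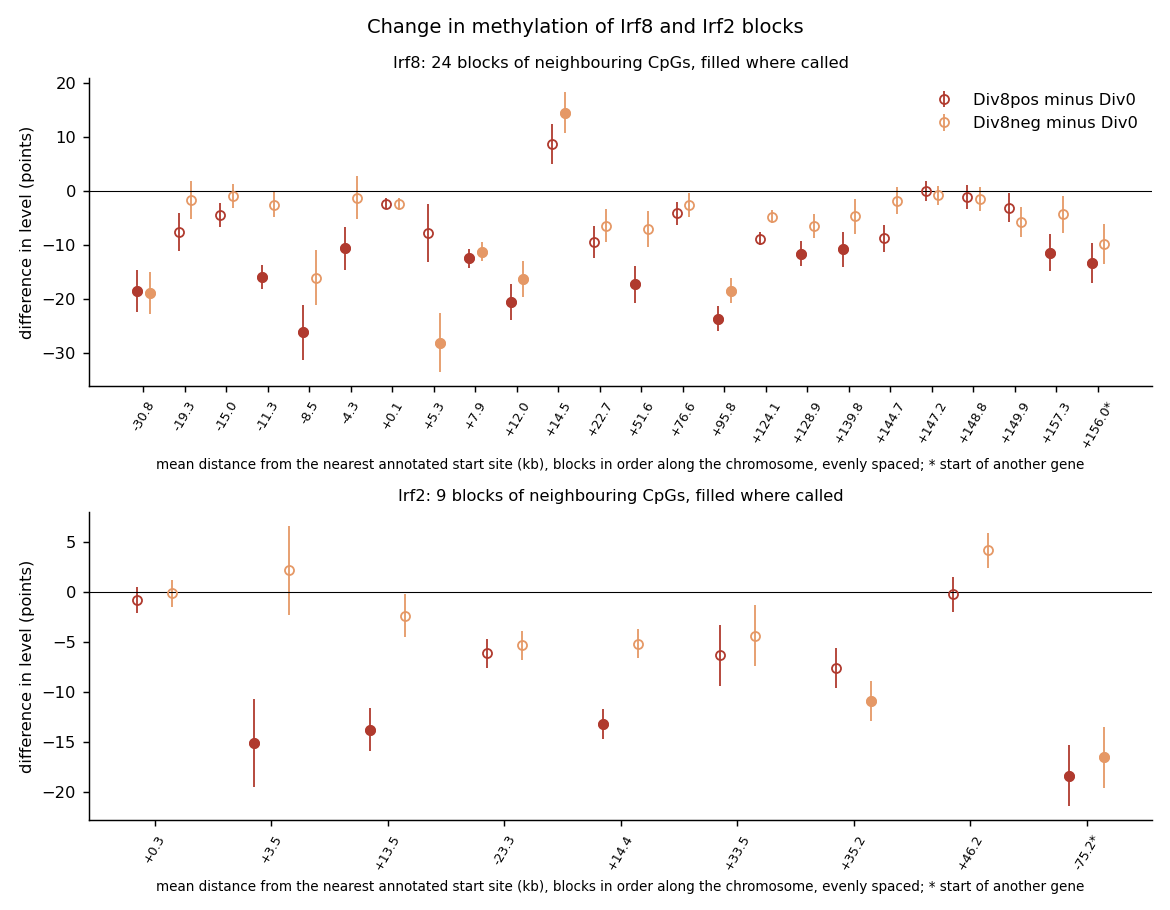
Differences in block methylation (percentage points, with standard errors) of Div8pos minus Div0 and Div8neg minus Div0 for the Irf8 and Irf2 blocks in order along the chromosome, filled where called and with a star where the nearest start is that of another gene. Most Irf8 blocks lie below 0 on both sides of the start, down to -26.1 in Div8pos, the block 5.3 kb downstream reaches -28 in Div8neg, and the block 14.5 kb downstream lies above 0.

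Irf1, the activator, and Irf2, its antagonist, differed in how much methylated DNA was measured. Of the 86 Irf1 CpGs 72 formed 1 block over the start, with 1.68% and 1.29% in Div8pos and 2.27% and 1.53% in Div0. The Irf1 block 17.0 kb upstream had 90.7% and 89.3% in Div8pos, 96.8% and 97.8% in Div8neg, and 99.3% and 98.7% in Div0, a difference of -9.03 points that was under the limit of 10 (adjusted p = 0.0022). The Irf2 start block of 16 CpGs was as low, with 1.18% and 1.32% in Div8pos and 2.95% and 1.22% in Div0. Methylated Irf2 CpGs lay in its introns and beyond, where 3 blocks, 3.47, 13.5 and 14.4 kb from the nearest Irf2 start, and a distal one were lower in Div8pos.

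The Irf2 block of 8 intronic CpGs 13.5 kb downstream, at chr8:47838472-47838685 of mm9, had 43.8% and 40.5% in Div8pos, 56% and 51.1% in Div8neg, and 54% and 57.9% in Div0. Div8neg overlapped Div0, and Div8pos lay below both. It was 13.8 points lower in Div8pos than in Div0 (SE 2.18, adjusted p = 0.0014). It was 11.4 points lower in Div8pos than in Div8neg (adjusted p = 0.0108), a difference of -8.95 points without Div8neg/196 (adjusted p = 0.0513) and -9.71 without Div8pos/197 (adjusted p = 0.0473). The block 3.47 kb downstream had 22.8% and 23.5% in Div8pos, 39.6% and 41.3% in Div8neg, and 41.3% and 35.3% in Div0. It was 15.1 points lower in Div8pos than in Div0 (SE 4.43, adjusted p = 0.0196), a call that ended without Div0/196 (-12.2 points, adjusted p = 0.113), Div8pos/196 (-14.8, 0.0683) or Div8pos/197 (-15.5, 0.0645). Against Div8neg it was 17.3 points lower (adjusted p = 0.0288), a call that ended without any 1 of the 4 libraries (adjusted p 0.0817 to 0.0897).

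The third intronic block, at chr8:47906127-47906276 of mm9, had 85.2% and 86.8% in Div8pos, 92.5% and 95.7% in Div8neg, and 98.9% and 99.6% in Div0, a difference of -13.2 points in Div8pos (adjusted p = 0.00035). A block at chr8:47926974-47926997, 35.2 kb from an Irf2 start, had 89.2% and 84.6% in Div8neg and 99.2% and 96.4% in Div0, a difference of -10.9 points (adjusted p = 0.015). Without Div0/196 that difference was -9.47 points (adjusted p = 0.099), and without Div8neg/197 it was -8.62 (adjusted p = 0.0466). The distal block at chr8:47996936-47997108 lies 75.2 kb from the start of another gene. It had 71.8% and 75.7% in Div8pos, 76% and 75.2% in Div8neg, and 96.7% and 87.6% in Div0. It was 18.4 points lower in Div8pos (adjusted p = 0.0017) and 16.6 points lower in Div8neg (adjusted p = 0.0146), and the Div8neg call ended without Div0/196 (-12 points, adjusted p = 0.072). The largest losses at single Irf2 CpGs were 38.4 points at 47996936 (adjusted p = 0.00227), 25.2 points at 47828603 (adjusted p = 0.00012) and 23.1 points at 47838674 (adjusted p = 0.00131), all in Div8pos. The first ended without Div0/196 (-27.4 points, adjusted p = 0.0565). The CpG at 47828603 lost its call without Div0/197 (adjusted p = 0.08) or Div8pos/197 (0.0817), and the CpG at 47838674 without Div0/197 (0.238) or Div8pos/197 (0.0609).

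Irf5 and Irf7, the Toll-like receptor and interferon responders, had small differences. The 8 Irf5 CpGs 477 bp upstream of the start had 4.63% and 2.24% in Div8pos, 8.13% and 6.69% in Div8neg, and 12.2% and 14.2% in Div0. These values were in order with no overlap, and the difference of -9.79 points in Div8pos (SE 1.86, adjusted p = 0.0031) was under the limit of 10. The other 24 Irf5 CpGs, downstream, had 1.33% and 1.11% in Div8pos and 3.25% and 1.78% in Div0. The Irf7 block of 6 exon CpGs 2.30 kb downstream had 85.5% and 88.8% in Div8pos, 94.3% and 92.8% in Div8neg, and 97.1% and 96.5% in Div0. Its difference of -9.68 points (SE 1.39, adjusted p = 0.00093) was also under the limit. One of these CpGs, at chr7:148449579 of mm9, was lower in Div8pos with 62.5% and 77.3%, against 90.5% and 92% in Div0 (-21.4 points, adjusted p = 0.0481), a call that ended without any 1 of the 4 libraries (adjusted p 0.0863 to 0.4). The start block of Irf7 had 2.32% and 1.69% in Div8pos and 1.68% and 1.52% in Div0.

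**Figure D5:**
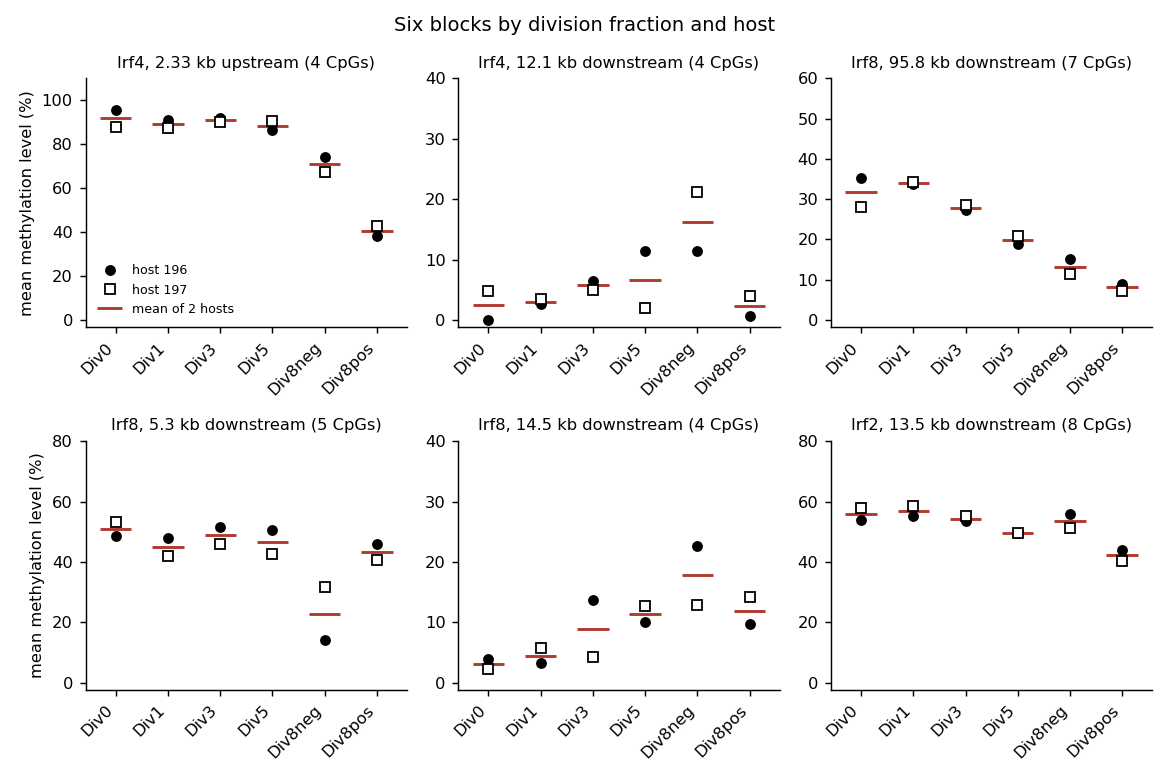
Percent methylation (vertical axis) by fraction for 6 blocks, 2 of Irf4, 3 of Irf8 and 1 of Irf2, with 1 point per host and a dash at the mean. The Irf4 block 2.33 kb upstream falls to 38.4% and 42.9% in Div8pos, the Irf8 block 95.8 kb downstream declines over the fractions, and the Irf8 block 5.3 kb downstream has its lowest values, 14.2% and 31.6%, in Div8neg.

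Other genes of the same pathways were taken from fixed lists and read by gene level. None was higher in Div8pos than in Div0, and the share lower among all genes was the 15.7% given above. Of 9 binding partners of IRF4 and IRF8, 2 were lower. Batf, which pairs with IRF4 at AP-1 composite elements, had 54.2% and 50.7% in Div8pos against 74.3% and 71.5% in Div0, a difference of -20.4 points (SE 2.39), and Batf2 differed by -14.4 points. Of 8 genes of the B cell circuit 3 were lower. Among them were Prdm1, the gene of the transcriptional repressor Blimp-1 (-14.4 points), and Ciita, the activator of MHC class II genes (-11.1). Of 10 genes of interferon receptors and signalling 3 were lower, namely Ifnar2 (-13.3), Ifngr1 (-10.3) and Ifng (-11.6). Of 10 genes of Toll-like receptor signalling 1 was lower, Ikbke, a kinase that phosphorylates IRF3 and IRF7, with 73.2% and 74.6% in Div8pos against 90.4% and 93.4% in Div0. Of 6 interferon-stimulated genes 1 was lower, Usp18 (-10.2), and of 5 other family genes 0. All 5 of these last, which include Irf9, Irf2bp1, Irf2bp2 and Irf2bpl, were below Div0 with a limma adjusted p under 0.05 but by less than 10 points, as were 80.4% of all genes before the size limit. List medians in Div8pos were -4.23, -6.1, -6.2, -6.05, -8.11 and -6.78 points in the order given, against -5.21 for all genes. In Div8neg against Div0, Batf (-11.5 points, adjusted p = 0.00641) and Ikbke (-10.4, 0.00129) were lower. In Div8pos against Div8neg limma called 0 genes of these lists.

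The genes whose profile was most like that of Irf4 were Mettl20, Duox1, Fbxo36, Capn11 and Slc17a2. Likeness was the root mean square difference over 10 values, the level minus that of Div0 of the same host in 5 fractions and both hosts, and it was 1.12 to 1.24 points for these genes. None of the other 5 members was among the nearest genes. Irf2 ranked 4594 at 3.18 points, Irf8 4794 at 3.23, Irf7 7977 at 3.81, Irf5 9386 at 4.07 and Irf1 13552 at 5.0.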

How the data were processed

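Reduced representation bisulfite libraries of 12 samples were analysed, 6 division fractions from each of 2 host animals. Bismark, Bowtie2 and the build mm9 are named in the submitters' processing notes, without versions in the sources used here. The deposited table holds, per the file headers, counts of methylated and unmethylated reads for every CpG and sample, with at least 10 reads in each sample. Its deposited methylation fractions equalled methylated over all reads to within 5.6e-16. Symbols, distances to starts and classes are those of the files.

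From these counts a quasi-binomial logistic model over all 12 samples, with fraction as the term, was fitted per CpG. Its dispersion was moderated with squeezeVar of limma 3.58.1 (R 4.3.3), which gave infinite prior degrees of freedom and 1.16 times binomial variation. Every CpG therefore received this same dispersion, and the spread between the 2 hosts at a CpG did not enter its own p-value. Small p-values of single CpGs thus reflect mostly read counts. Adjusted p-values are Benjamini-Hochberg over all 760348 CpGs, and calls needed 0.05 and 20 points. Levels of 16505 genes (at least 5 CpGs within 50 kb) and 78550 blocks (at least 3 CpGs, gaps up to 500 bp) were percent means with every CpG weighted equally, tested with limma at 0.05 and 10 points. All p-values are two-sided and come from these fits. Both were tested on simulated data. Python 3.11.15, numpy 2.4.6, scipy 1.17.1, pandas 2.3.3 and matplotlib 3.10.9 were used.

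By the labels, same-numbered samples share a host animal, so host numbers pair the samples, and a fit with host as a block was an alternative. Between fractions, the host deviations correlated at -0.00522 to 0.0121 over 15 fraction pairs and 83552 CpGs. No library was a copy of another, since coverage differed beyond counting noise (chi-square at least 1.2 per degree of freedom). PCR reads carry no molecular identifiers, so read numbers cover counting error only.

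The text names all members, the blocks that passed in any comparison, the block nearest each start, and for each member the 3 largest losses in Div8pos at CpGs that passed with both hosts in one direction. The other 3 Irf4 CpGs, the Irf8 CpG at 123355960 and blocks under the limit were named after their values were seen. So were the runs and single CpGs of the wider table. Some genes of the fixed lists are not reported here by name. The members and lists were chosen with earlier results of these data known. Promoter sequences are those of RefSeq (GRCm38.p6) and are printed only where at least 10 measured CpGs matched by spacing, with no coordinates converted between builds. Alternatives were other coverage, size limits, block gaps, gene windows, weighting, dispersion, limma for CpGs and leaving out each library.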

Additional observations from a re-analysis of the deposited data

How the results depend on the processing

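Values below are counts of member CpGs, genes or blocks called lower unless called higher is said, and the cause of a change was not tested except where fewer sites or samples or another limit give it by construction. With the dispersion of each CpG alone, 0 CpGs passed in Div8neg, Div8pos and Div8pos against Div8neg, with 78 at an unadjusted p under 0.05 in Div8pos. With at least 20 reads in every library, which left 144 member CpGs of 246502 in all, there were 8, 11 and 2. At that coverage 0 genes were called in Div8pos and in Div8pos against Div8neg. Irf4 kept fewer than 5 CpGs and was not tested as a gene, so this 0 is no failed test of Irf4. At 10 points there were 1 in Div5, 62 in Div8pos and 10 against Div8neg, with 1 higher in Div8neg and 3 in Div8pos. Limma gave 8 in Div8neg, and 3 with 1 higher in Div8pos against Div8neg. The wider table, an alternative chosen after seeing the data, gave 1 in Div5, 58 in Div8pos and 1 higher in Div8pos against Div8neg. At 5 points for genes there were 1 in Div8neg and 3 in Div8pos. With summed reads there were 2 in Div8pos and 0 against Div8neg, where Irf4 differed by -8.78 points (adjusted p = 0.0804). At 20 points for blocks there were 2 in Div8neg with 0 higher, 4 in Div8pos and 1 against Div8neg.

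The fit with host as a replicate block, which pairs the samples of one animal, gave 0 higher blocks in Div8neg, and the calls it ended are given with their results, with 12 CpGs lower in Div8neg, 35 in Div8pos and 5 against Div8neg; no other member count of lower or higher CpGs, genes or blocks moved by over 1.5 times. Leaving out each library gave 1 to 10 CpGs in Div8neg (0 to 1 higher), 20 to 38 in Div8pos (0 to 1 higher) and 1 to 6 against Div8neg. For blocks it gave 1 to 9 in Div8neg (0 to 1 higher), 14 to 17 in Div8pos, and 3 to 4 against Div8neg (0 to 1 higher), and 0 to 1 block with a more positive second step. Direction turned in 4 values that were not called. Irf2 in Div8neg was 0.179 points above Div0 within 5 kb and 0.897 with summed reads, and in Div8pos against Div8neg with summed reads Irf1 was at 0.266 and Irf7 at 0.466. Depth, a median of 20 reads in the shallowest library, limits single CpGs more than blocks.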

Other observations

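A wider deposited table lists 1639598 CpGs, of which 1612880 had at least 1 read in every library. It added 378 CpGs of the 6 genes, 190 of Irf8, 87 of Irf2, 41 of Irf5, 28 of Irf1, 27 of Irf4 and 5 of Irf7. With the same model and limits, 24 of these 378 were lower in Div8pos than in Div0 (10 of Irf8, 7 of Irf4, 6 of Irf2 and 1 of Irf1). That share is close to the 6.44% of all CpGs of that table, which include those already tested above. In Div8neg 6 of the 378 were lower, against 0.436%, and in Div5 1, against 0.072%. Over all 801 member CpGs of that table the shares were 7.24% in Div8pos, 2.25% in Div8neg and 0.125% in Div5. These CpGs have few reads in some libraries, so the values of runs below are percentages of the summed reads of each run. Values of a single CpG are percentages of its own reads alone.

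The clearest of them was a run of 4 intergenic CpGs 16.4 kb upstream of Irf4, at chr13:30824668-30824997 of mm9, all 4 of which were lower in Div8pos. In hosts 196 and 197 the run had 91.7% and 90.4% in Div0, 95.2% and 90.1% in Div1, 88.0% and 81.7% in Div3, and 68.2% and 60.5% in Div5. It had 50.0% and 35.0% in Div8neg and 1.39% and 5.1% in Div8pos, from 22 to 121 reads per library. Its values in Div5 lay below those of Div0 to Div3 in both hosts, and its CpG at 30824693 was the one lower in Div5 (adjusted p = 0.016). A run of 6 CpGs 0.583 kb upstream of Irf4 had 6.58% and 7.25% in Div8pos, 18.5% and 13.8% in Div8neg, and 38.9% and 22.1% in Div0. The last 2 of the 7 Irf4 losses were intronic, downstream of the start. The CpG at 30852087 had 66.7% and 60% in Div8pos and 100% in both Div0 libraries (adjusted p = 0.0224), and that at 30852117 had 33.3% and 30% in Div8pos and 100% in both Div0 libraries (adjusted p = 0.00805).

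Beside the Irf8 block that was lowest in Div8neg, 4 further CpGs of the 3′ UTR 5.47 kb downstream had 68.3% and 44.9% in Div8pos, 33.3% and 47.1% in Div8neg, and 64.7% and 76% in Div0. A run of 3 CpGs 19.8 kb downstream, also classed as 3′ UTR, had 55.1% and 32.1% in Div8pos, 25% and 2.7% in Div8neg, and 63% and 58% in Div0. The whole run held 12 reads in Div8neg/196 and 37 in Div8neg/197. Its CpG at 123279975 had 63.2% and 51.7% in Div8pos, 0% and 7.14% in Div8neg, and 90% and 90.6% in Div0, and was the one CpG called higher in Div8pos against Div8neg. These CpGs come from the same 12 libraries as the block, so they are not independent of a library that stands apart.

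In the distal Irf2 interval, a run of 5 CpGs 72.2 kb from the nearest start had 45.5% and 42.6% in Div0, 18.5% and 21.2% in Div5, 7.14% and 14.9% in Div8neg, and 7.79% and 1.45% in Div8pos. Its CpG at 47999878 had 6.67% and 0% in Div8pos, against 80% and 100% in Div0. This CpG was outside those with at least 10 reads in every library, so its percentages can rest on few reads.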
